A study of Mus musculus with 28 samples.

Results

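The genes described are 36 mouse genes of fatty acid and triglyceride metabolism, chosen by name and matched by symbol to the Ensembl identifiers of the deposited counts. All 36 were found among the 56748 identifiers listed for each library. They were followed in 28 libraries of total RNA, depleted of ribosomal RNA, from the mouse mammary lines HC11, labelled untransformed, and 4T1, labelled cancer. HC11 cells are epithelial and can be induced by hormones to make milk proteins, while 4T1 cells come from a metastasising mammary carcinoma. HC11 was treated with DOX (10 libraries) or with DOX + DIP (10 libraries), and 4T1 with DOX (8 libraries). Every group therefore carried DOX, and none of the 28 libraries lacked it. Neither abbreviation is spelled out in the labels; as background, DIP is in common use for dexamethasone, insulin and prolactin, the hormones that induce HC11 cells. The labels name no construct, clone, passage, culture or batch, so libraries were numbered only as names, and p-values measure the spread between these libraries, which may be technical. Libraries held 135955692 to 185616382 counts with DOX, 134117581 to 222065843 with DOX and DIP, and 174275141 to 198008179 in 4T1.

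Some libraries stood apart in earlier results of these data, and results are given with and without them. DIP libraries 8 and 10 had a low sum of 6 epithelial markers: Epcam, Krt8, Krt18, Krt5 and Krt14 were below the other 8 DIP libraries in both, and Cdh1, at 204 and 216 CPM, was among them. In CPM, counts scaled to the total of each library, the markers summed to 429 and 522 in that pair, to between 1458 and 2202 in the remaining 8, and to between 3383 and 8009 with DOX alone. Most of the sum with DOX was Krt5 and Krt14. Krt5 ran from 1586 to 4684 CPM with DOX and 322 to 810 in those 8, and Krt14 from 1084 to 2744 and 407 to 727. Cdh1 was lower in those 8 too, at 197 to 252 against 276 to 401 CPM. Epcam (174 to 304 against 136 to 279) and Krt8 (78.3 to 206 against 107 to 172) overlapped DOX widely. Krt18 ran higher, from 23.0 to 82.3 against 7.01 to 27.6 CPM. In 4T1 libraries 1 and 2 the basal keratin gene Krt5 stood at 64.8 and 95.5 CPM, against 10.8 to 25.2 in the other 6. All 6 epithelial markers had a mean of at least 1 CPM in every group. Libraries of a group were also compared in pairs, by chi-square per degree of freedom over genes with enough counts. Some pairs were close, at 33.85 for DIP libraries 7 and 9, 42.86 for DIP 4 and 6 and 17.72 for 4T1 5 and 6. DOX libraries 7 and 9 (51.1) and 8 and 10 (51.65) were close too. Leaving out 1 library of such a pair keeps the other. By this measure HC11 DOX library 5 lay farthest from its group, at 370.1 or more from each other DOX library. It was left out only in the fits that leave out 1 library at a time.

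Cells make fatty acids from citrate that leaves the mitochondrion. Citrate is split to acetyl-CoA, which acetyl-CoA carboxylase turns to malonyl-CoA and fatty acid synthase joins to palmitate, with NADPH as the reductant. Elongases and desaturases then modify the chain, acyl-CoA synthetases activate it, and acyltransferases, lipins and DGAT enzymes attach chains to glycerol to give triglyceride. In the mammary gland this route, driven in part by the transcription factor SREBP1, supplies milk fat, alongside uptake of fatty acids released from blood lipoproteins by lipoprotein lipase. Lipases of the lipid droplet and carnitine palmitoyltransferase at the mitochondrion work in the opposite direction, towards release and oxidation.

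Levels are given as CPM scaled over all 28 libraries, and levels of different genes are compared only per kilobase of exon. On that per-kilobase scale the most abundant member in HC11 with DOX was the desaturase gene Scd2, at a mean of 160.3 CPM per kilobase. Fads2 followed at 88.0, Fasn at 68.1, Srebf1 at 57.6, Scd1 at 46.8 and Fads1 at 42.7 CPM per kilobase. With DIP, Srebf1 stood first at 169 CPM per kilobase, ahead of Scd2 at 103, Scd1 at 66.4 and Fasn at 44.7. That order rests on the 8 libraries other than 8 and 10, where Srebf1 was at 207 and Scd2 at 122 CPM per kilobase. In libraries 8 and 10 Fasn stood first, at 48.5 and 41.8 CPM per kilobase, and Srebf1 was at 16.8 and 16.9. In 4T1 the order was Scd2 at 188, Fads2 at 63.0, Acly at 61.4, Fasn at 61.0 and Agpat1 at 43.1 CPM per kilobase. At the other end, the group means of Lpl, Cd36, Fabp3, Thrsp and Pdk4 were below 1 CPM per kilobase in all 3 groups. A count of 0 allowed between 0.0135 and 0.0224 CPM, for counting error only.

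In HC11, Srebf1 and genes of triglyceride assembly (Agpat2, Lpin1, Dgat1, Dgat2), for lipolysis (Pnpla2), for entry of fatty acids into mitochondria (Cpt1a) and the lipase inhibitor Angptl4 were higher with DIP. Fasn, Acaca, Fads1 and Fads2, which build and desaturate the chain, were lower. Lpin2 and Acsl3 were lower too, and Acsl1 and Acss2 higher. The assembly genes Gpam, Gpat4, Agpat1 and Lpin3 were not called with all libraries. The calls did not rest on the same libraries. In DIP libraries 8 and 10, Srebf1 and Cpt1a lay below every DOX library. Lpin1 was within the DOX range there, and Agpat2 was below the other DIP libraries. The Acaca and Dgat2 calls ended without that pair, and those of Srebf1, Cpt1a and Dgat2 with limma voom, another test. Of 34 members tested, 10 were higher and 6 lower with DIP at an adjusted p under 0.05 (quasi-likelihood test of edgeR, Benjamini-Hochberg adjustment over all genes tested), with a median log2 fold change of 0.13. Among all 23829 genes tested, 24.5% were higher and 21.0% lower, with a median of 0.06, so the shares of members were near this background. Every DIP library lay above every DOX library for 3 of the higher members (Dgat1, Angptl4 and Pnpla2) and below for 0 of the lower ones. Over all genes tested, 4.76% were higher and 6.66% lower without overlap. In bulk RNA of this kind, fewer cells of a type and less RNA per cell cannot be told apart.

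**Figure D1:**
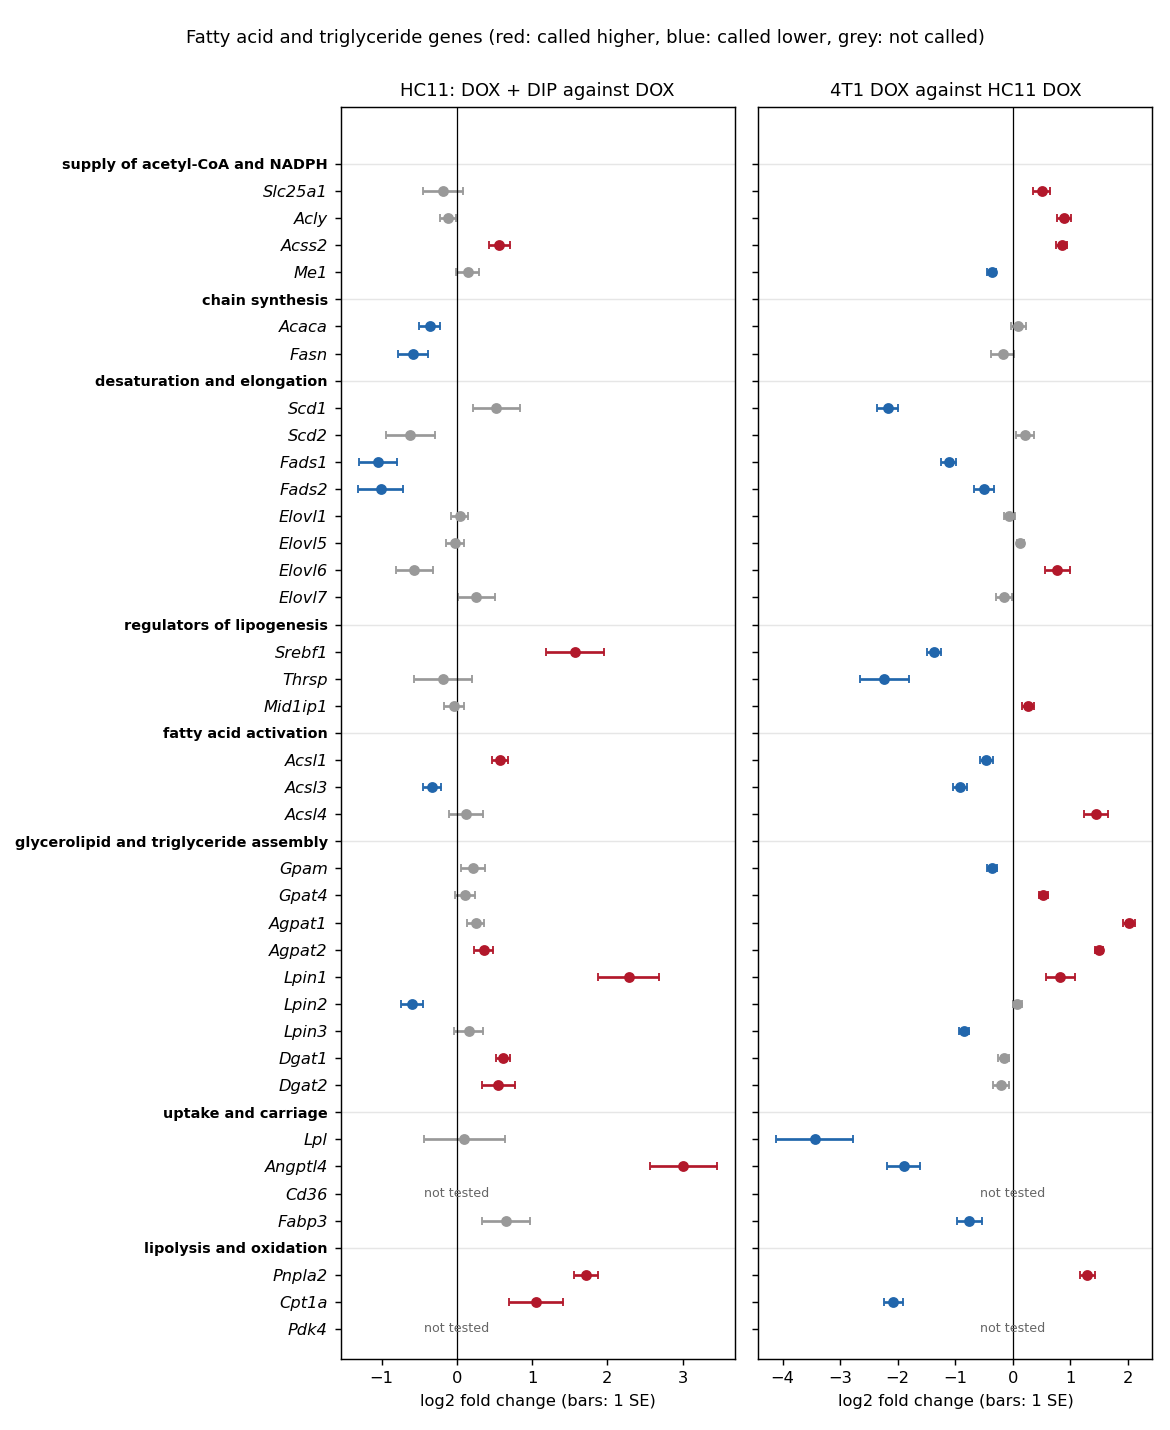
Log2 fold change of each member (points, with bars of 1 SE) for DOX + DIP against DOX in HC11 on the left and for 4T1 against HC11 with DOX on the right, arranged by role. Red points passed the test as higher and blue as lower: 10 and 6 with DIP, 11 and 14 in 4T1.

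The 10 DIP libraries were not alike in these genes. Libraries 8 and 10 both lay below the other 8 for 15 of the 34 tested members and both above them for 4, the acyltransferase genes Gpam, Gpat4 and Dgat2 and the binding protein gene Fabp3. For 12 members both lay below every DOX library, for 8 within the range of the DOX libraries and for 8 above every DOX library. These positions were not counted over all genes, so they cannot be called particular to the members. The pair also lay far from the other 8 over genes at large, at a chi-square per degree of freedom of 1306 to 2362. Among the other 8 it was 33.85 to 978.8. Without those libraries, 13 members were higher and 5 lower of 35 tested. In that fit 27.0% of all genes tested were higher and 25.4% lower. Scd1, Elovl7, Lpin3 and Pdk4 joined the higher members, and Acaca and Dgat2 no longer passed. Pdk4, with 44 counts in all 10 DOX libraries, passed the filter on low counts here mainly through its DIP libraries. Its call as higher was therefore close to fixed in advance and adds no support. Every remaining DIP library then lay above every DOX library for 7 higher members and below for 0 lower ones, against 9.35% and 8.54% of all genes tested.

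**Figure D2:**
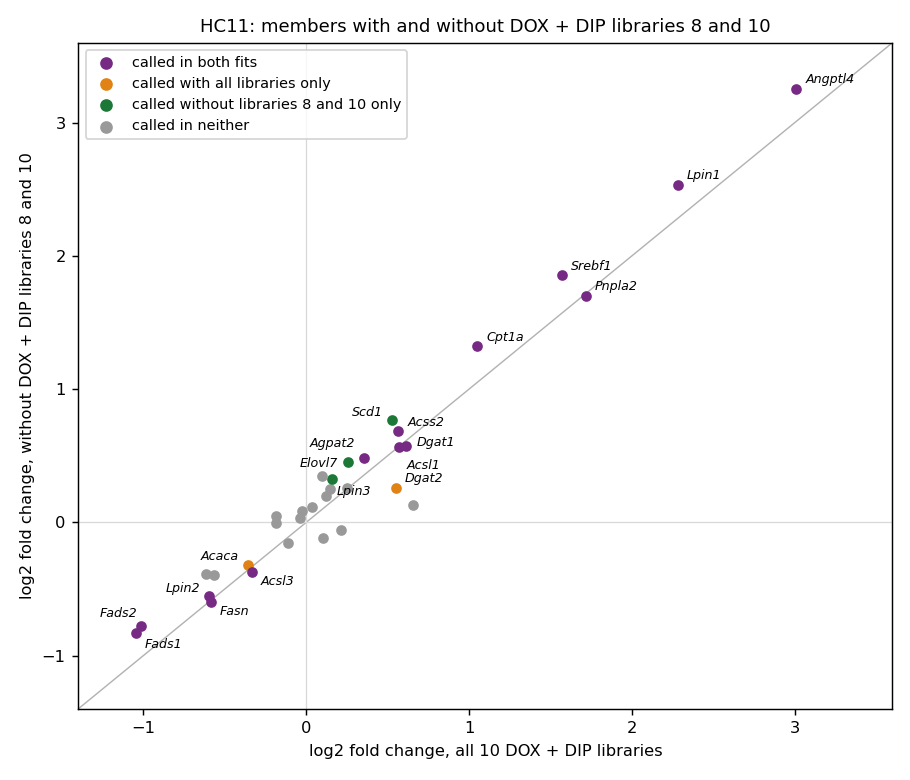
Log2 fold change of each member for DOX + DIP against DOX in HC11, with all 10 DIP libraries (horizontal axis) and without libraries 8 and 10 (vertical axis), coloured by which of the fits passed the test. Points near the diagonal changed little: among members tested in both fits, Angptl4, Lpin1, Srebf1, Pnpla2 and Cpt1a had the largest rises in each, and Scd1, Elovl7 and Lpin3 passed only without the pair. Pdk4, tested only without the pair, is not plotted.

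The 5 promoter windows shown are a selection from members called with DIP: Pnpla2, Lpin1 and Cpt1a, which rose, and Fasn and Fads2, which fell. Angptl4 and Fads1 had no window listed, and the windows of Srebf1 are not shown. Each holds the 250 bases before the annotated start, 5′ to 3′, from RefSeq on the GRCm38.p6 build. The deposited counts used another build (GRCm39), so these positions belong to RefSeq's annotation and not to the counts. Capitals mark the CCAAT box (CCAAT) and the GC box (GGGCGG) on either strand, where overlapping matches run together.
Pnpla2, chr7:141454938-141455187 (+ strand): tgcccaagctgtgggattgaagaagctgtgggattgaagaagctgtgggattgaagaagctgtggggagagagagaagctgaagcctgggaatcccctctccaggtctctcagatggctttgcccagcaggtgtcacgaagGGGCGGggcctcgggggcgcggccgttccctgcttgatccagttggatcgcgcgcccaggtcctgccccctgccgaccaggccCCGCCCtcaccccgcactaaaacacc
Lpin1, chr12:16610967-16611216 (− strand): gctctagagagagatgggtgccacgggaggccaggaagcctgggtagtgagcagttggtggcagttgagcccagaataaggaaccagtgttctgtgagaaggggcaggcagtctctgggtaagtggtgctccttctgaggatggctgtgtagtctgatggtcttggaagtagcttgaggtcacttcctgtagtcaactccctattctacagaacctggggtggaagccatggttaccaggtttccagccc
Cpt1a, chr19:3323051-3323300 (+ strand): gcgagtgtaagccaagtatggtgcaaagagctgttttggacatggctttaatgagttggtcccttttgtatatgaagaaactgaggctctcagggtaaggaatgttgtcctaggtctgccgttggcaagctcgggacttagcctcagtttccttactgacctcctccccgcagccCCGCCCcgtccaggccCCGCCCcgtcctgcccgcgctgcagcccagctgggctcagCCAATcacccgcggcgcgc
Fasn, chr11:120824548-120824797 (− strand): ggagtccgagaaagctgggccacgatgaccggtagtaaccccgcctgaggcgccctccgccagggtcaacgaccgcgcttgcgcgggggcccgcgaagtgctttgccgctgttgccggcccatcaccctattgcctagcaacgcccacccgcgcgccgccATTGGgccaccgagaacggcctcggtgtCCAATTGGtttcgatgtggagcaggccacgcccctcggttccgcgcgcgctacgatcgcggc
Fads2, chr19:10101504-10101753 (− strand): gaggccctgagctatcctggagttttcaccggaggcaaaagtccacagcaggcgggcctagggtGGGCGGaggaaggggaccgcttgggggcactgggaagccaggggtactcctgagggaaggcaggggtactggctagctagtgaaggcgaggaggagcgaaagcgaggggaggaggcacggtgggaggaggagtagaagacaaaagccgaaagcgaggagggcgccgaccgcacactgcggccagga
The Fasn window held 3 CCAAT matches, the Cpt1a window 1 CCAAT and 2 GC matches, the Pnpla2 window 2 GC matches and the Fads2 window 1, and the Lpin1 window held neither. Windows were listed for 28 of the 36 members, 38 windows in all, since 8 members had more than 1. CCAAT was found in 17 of these 38 windows and in 33.8% of all 32851 windows of this length, and GGGCGG in 24 and in 32.7%. The sterol element TCACNCCAC was in 1 member window (1.05% of all windows), the E-box CACGTG in 3 (6.02%) and the glucocorticoid element ACANNNTGT in 1 (5.84%), counted on both strands. The GC content of the printed windows was 63.2% for Pnpla2, 54.8% for Lpin1, 59.6% for Cpt1a, 69.2% for Fasn and 64.8% for Fads2, against a median of 52.4% over all windows. A match describes letters only, and binding was not measured.

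The spread within the groups differed as well. Among the 31 members with a mean of at least 1 CPM in every group, the highest DIP library exceeded the lowest by a median of 2.61-fold and by more than 5-fold for 10 members, the widest being Srebf1 at 17.98-fold. Without libraries 8 and 10 the median was 2.19-fold, with 2 members over 5-fold. The DOX libraries of HC11 had a median ratio of 1.88, and those of 4T1 of 1.40. In 4T1 the widest was Angptl4 at 5.54-fold.

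In the 4T1 line, genes that supply acetyl-CoA and the acyltransferase genes Agpat1 and Agpat2 were higher than in HC11, and Srebf1, Scd1, Fads1 and Cpt1a were lower. Of 34 tested, 11 were higher in 4T1 and 14 lower, with a median log2 fold change of -0.15. Over all 23875 genes tested, 34.3% were higher and 35.6% lower, with a median of -0.01. In 7 of the higher and 7 of the lower members the libraries of the lines did not overlap, against 19.5% and 17.5% of all genes tested. The higher members without overlap were Acly, Acss2, Acsl4, Gpat4, Agpat1, Agpat2 and Pnpla2, while Elovl6 was higher with overlap. The lower ones without overlap were Scd1, Fads1, Srebf1, Thrsp, Lpin3, Angptl4 and Cpt1a. Scaled by library size alone, 9 members were higher and 18 lower, and the median of all genes moved from -0.01 to -0.24, with 5964 genes higher and 10661 lower against 8178 and 8510 with TMM factors. Under that scaling Elovl1 (-0.28, adjusted p = 0.00506), Elovl7 (-0.38, 0.0266), Dgat1 (-0.40, 0.00105) and Dgat2 (-0.42, 0.0106) passed as lower in the edgeR test. Both comparisons use the same 10 HC11 DOX libraries, and line and culture cannot be told apart in the second. Without libraries 1 and 2, 12 members were higher and 13 lower, against 32.4% and 34.0% of all genes.

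Of the 4 genes that supply acetyl-CoA and NADPH, 3 were higher in 4T1 and 1 lower, against 34.3% and 35.6% of all genes tested. Acly, which splits citrate to acetyl-CoA, stood at 173 ± 32.6 CPM (SD, n = 10) with DOX, 158 ± 20.4 with DIP (n = 10) and 324 ± 58.6 in 4T1 (n = 8). Each 4T1 library, from 236 to 383 CPM, lay above each HC11 DOX library, from 126 to 230.4. The log2 fold change was 0.89 ± 0.12 in 4T1 (SE, adjusted p = 2.26e-06) and -0.11 ± 0.11 with DIP (0.412). Acss2, which makes acetyl-CoA from acetate, rose with DIP by 0.56 ± 0.14 on the log2 scale (adjusted p = 0.00256) and was higher in 4T1 by 0.85 ± 0.10 (2.94e-07). Its DIP libraries 8 and 10 were at 9.88 and 8.82 CPM, within the DOX range of 8.17 to 13.3, while the other 8 ran from 13.4 to 20.97 CPM and lay above it. Slc25a1, the mitochondrial citrate carrier, was higher in 4T1 by 0.50 ± 0.14 (0.00393), a call lost when scaled by library size alone (0.28, 0.0664) or with all 3 groups in one fit (0.51, 0.0763). With DIP it stood at 11.2 and 12.6 CPM in libraries 8 and 10 and at 32.6 to 71.4 in the others, and the difference was -0.19 ± 0.27 (0.613). Me1, a malic enzyme that yields NADPH, was lower in 4T1, at a log2 fold change of -0.36 ± 0.08 (0.000362), at 58.5 ± 6.55 against 74.0 ± 9.22 CPM.

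Both genes of chain synthesis were lower with DIP, by less than 2-fold. Fasn, which encodes fatty acid synthase, ran from 365 to 1219 CPM in the DOX libraries with a median of 746, and from 303 to 790.2 with DIP with a median of 454. The groups overlapped widely, and Fasn fell by 0.59 ± 0.20 on the log2 scale (adjusted p = 0.0204, n = 10 and 10). Its value without libraries 8 and 10 was -0.60 (0.0271), and the levels of that pair were 531 and 458 CPM. Acaca, acetyl-CoA carboxylase 1, was lower, at a log2 fold change of -0.36 ± 0.14 with DIP (0.0416), and this call ended without any 1 of DOX libraries 3, 5, 6, 7 and 9 or DIP libraries 1, 2, 3, 4, 6, 8 and 10 (adjusted p up to 0.0795), without both libraries 8 and 10 (0.0740), without the filter on low counts (0.0513) and with DESeq2 (0.0554). Between the lines neither gene passed: Fasn differed by -0.17 ± 0.20 (0.446) and Acaca by 0.10 ± 0.13 (0.509).

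Fads1 and Fads2, the delta-5 and delta-6 desaturases of polyunsaturated fatty acid synthesis, fell with DIP. Fads1 ran from 124 to 249 CPM with DOX (median 231), from 31.5 to 163 with DIP (median 103) and from 84.1 to 109 in 4T1 (median 94.7). DIP libraries 8 and 10 were the lowest, at 32.8 and 31.5 CPM, the others overlapped the DOX range only at its lower end, and every 4T1 library lay below every DOX library. The log2 fold change was -1.05 ± 0.26 with DIP (adjusted p = 0.00211) and -1.11 ± 0.13 in 4T1 (1.48e-07). Fads2 ran from 154 to 386 CPM with DOX (median 339.8), from 33.9 to 241 with DIP (median 158) and from 173 to 242 in 4T1 (median 209.7). The log2 fold change with DIP was -1.01 ± 0.30 (0.00783) with all libraries and -0.78 ± 0.20 (0.003) without libraries 8 and 10. In 4T1 it was -0.50 ± 0.18 (0.0166), a call that ended without 4T1 libraries 1 and 2 (0.0741) and with all 3 groups in one fit (0.110).

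Scd1 and Scd2, the delta-9 desaturases that make oleate and palmitoleate, did not pass the test with DIP over all libraries. Scd1 ran from 148 to 358 CPM with DOX (median 214), from 72.5 to 581 with DIP (median 337) and from 39.4 to 67.2 in 4T1 (median 50.1). DIP libraries 8 and 10, at 72.5 and 75.6 CPM, lay below every DOX library, while the other 8 ran from 173 to 581. With all libraries the DIP difference was 0.53 ± 0.32 (adjusted p = 0.187), and without that pair it was 0.77 ± 0.22 (0.006), a rise. In 4T1 every library was below every HC11 library with DOX, and the gene was lower, at a log2 fold change of -2.18 ± 0.18 (1.31e-09), a 4.52-fold difference. Scd2 stood at 876 ± 266 CPM with DOX, 562 ± 368 with DIP and 1029.7 ± 203 in 4T1. Its differences were -0.62 ± 0.32 with DIP (0.123), which passed without DIP library 7 (-0.82, 0.0341) or 9 (-0.80, 0.042) and with limma voom (-0.88, 0.0354), and 0.21 ± 0.16 in 4T1 (0.258). The Scd genes of the mouse are close paralogs, and how reads shared by several genes were counted is not given in the sources used here, so the split between them is uncertain.

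Of the 4 elongase genes 1 was higher in 4T1 and 0 passed with DIP over all libraries. Elovl6, which extends palmitate to stearate, was higher in 4T1 at 86.2 ± 18.6 against 49.9 ± 19.2 CPM, by 0.77 ± 0.22 (adjusted p = 0.00397). Its DIP libraries ran from 13.1 to 47.2 CPM, with libraries 8 and 10 lowest, and the difference of -0.57 ± 0.24 (0.063) passed without DOX library 5 (-0.69, 0.0103) or DIP library 9 (-0.65, 0.0402) and with all 3 groups in one fit (-0.59, 0.0276). Elovl7 passed only without DIP libraries 8 and 10, at 0.45 ± 0.19 (0.0496), and differed by -0.15 ± 0.14 in 4T1 (0.355). Elovl1, which acts on very long saturated chains, and Elovl5, which acts on polyunsaturated ones, differed by 0.04 ± 0.11 and -0.03 ± 0.12 with DIP. In 4T1 Elovl1 differed by -0.06 ± 0.09. Elovl5 differed by 0.13 ± 0.07 in 4T1 (0.0797) and passed as higher without HC11 DOX library 5 or 4T1 library 2, 4, 5 or 6 (adjusted p from 0.0267 to 0.0496). Of the 8 desaturase and elongase genes, 0 rose and 2 fell with DIP, and 1 was higher and 3 lower in 4T1. The shares over all genes tested were 24.5% higher and 21.0% lower with DIP, and 34.3% and 35.6% in 4T1.

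Srebf1, which encodes the transcription factor SREBP1, rose with DIP and was lower in 4T1. It ran from 229 to 474 CPM with DOX (median 303), from 94.5 to 1699.6 with DIP (median 1018) and from 104 to 157 in 4T1 (median 126). The 8 DIP libraries other than 8 and 10 lay between 686 and 1699.6 CPM, above every DOX library, whereas libraries 8 and 10 stood at 94.5 and 95.2 CPM, below every DOX library. The gene rose with DIP by 1.57 ± 0.38 on the log2 scale (adjusted p = 0.00207) with all libraries and by 1.86 ± 0.17 (3.29e-08) without that pair. With limma voom and all libraries the value was 1.12 (0.0584), which did not pass. In 4T1 it was lower, at a log2 fold change of -1.38 ± 0.12 (3.64e-09), with no overlap. The counts are per gene and do not separate its 1a and 1c transcripts. Thrsp, a small protein that promotes lipogenesis in liver and mammary gland, was barely detected, with 475 counts in the 10 DOX libraries, 447 in the DIP libraries and 79 in the 8 4T1 libraries. It was lower in 4T1, at a log2 fold change of -2.23 ± 0.43 (0.000113) and differed by -0.19 ± 0.38 with DIP (0.726). Its homolog Mid1ip1 was far more abundant, at 38.9 ± 7.01 CPM with DOX and 37.4 ± 8.53 with DIP. It was higher in 4T1 by 0.27 ± 0.10 (0.0238), a call that ended when scaled by library size alone (0.04, 0.691) and with all 3 groups in one fit (0.0533), and 25.5% of its exon length lies opposite exons of Gm14493, whose reads could not be separated as no strand setting is given.

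**Figure D3:**
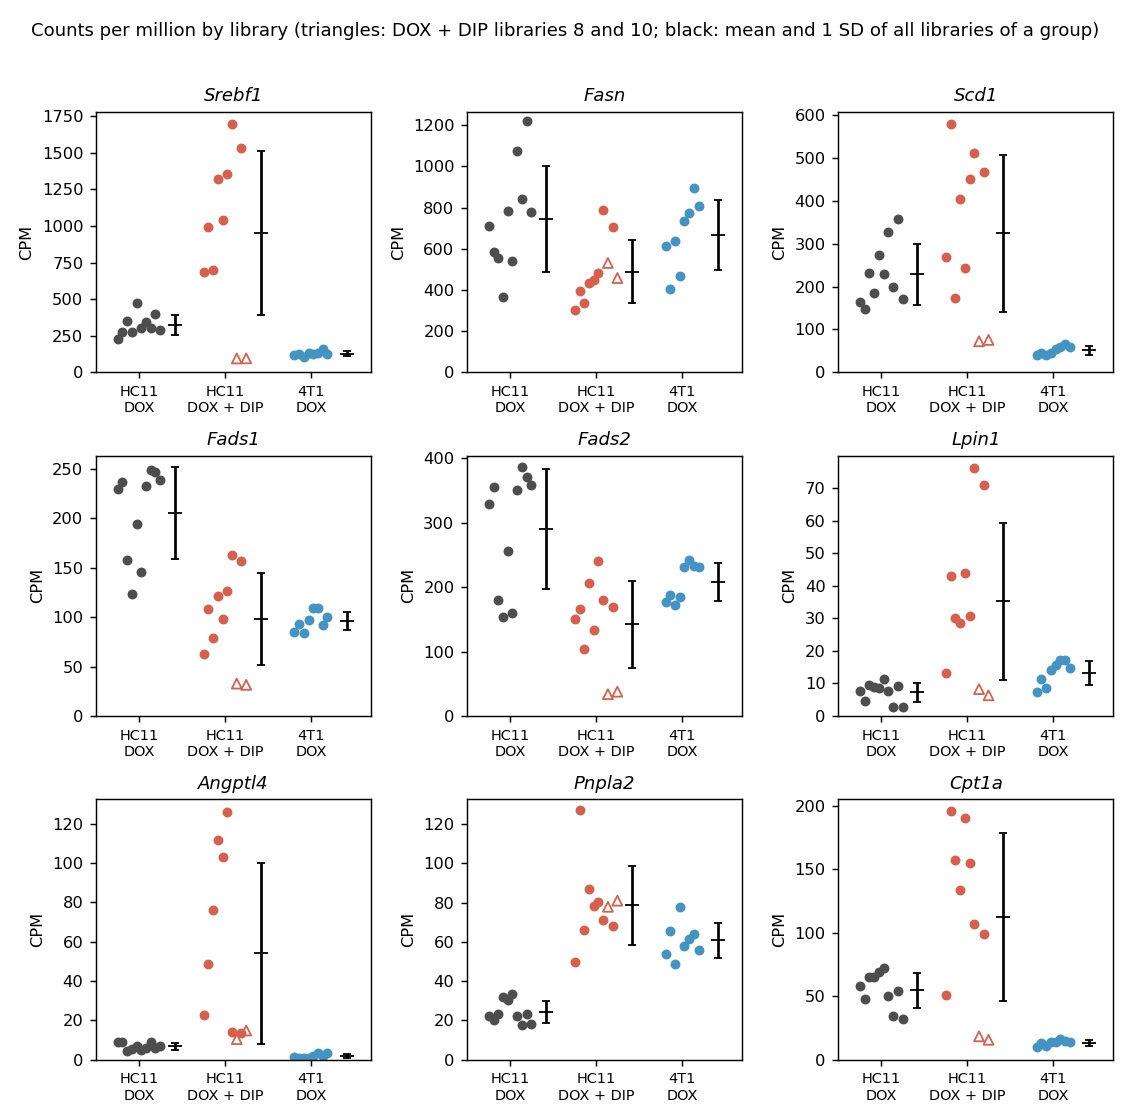
CPM of 9 members in each library of the 3 groups, with the mean and 1 SD of all libraries of a group in black and DIP libraries 8 and 10 as open triangles. For Srebf1, Scd1, Fads1, Fads2, Lpin1 and Cpt1a the triangles lie below the other DIP libraries, whereas for Pnpla2 they lie among them, at 77.9 and 81.0 CPM.

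The acyl-CoA synthetases, which activate free fatty acids, changed in different directions. Acsl1 rose with DIP from 22.1 ± 3.71 to 32.5 ± 4.37 CPM, by 0.57 ± 0.11 on the log2 scale (adjusted p = 0.000149), and its 10 DIP libraries kept within 25.5 to 39.7 CPM. Acsl3, found on the endoplasmic reticulum and on nascent lipid droplets, fell by 0.33 ± 0.12 (0.0258). That call ended without DOX library 7 (0.0543) or 9 (0.0549). Acsl4, which prefers arachidonate, ran from 9.75 to 44.3 CPM with DOX (median 33.5) and from 60.4 to 110.4 in 4T1 (median 89.8), with every 4T1 library above every HC11 DOX library. It was higher in 4T1 by 1.45 ± 0.21 (3.09e-06), while Acsl3 and Acsl1 were lower there, at a log2 fold change of -0.92 ± 0.12 (7.47e-07) and -0.46 ± 0.11 (0.00114). With DIP Acsl4 differed by 0.12 ± 0.23 (0.706).

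Of the genes for the first steps of glycerolipid assembly, Agpat1, Agpat2 and Gpat4 were higher in 4T1. Agpat1, which acylates lysophosphatidic acid, ran from 25.4 to 45.1 CPM with DOX (median 30.8) and from 114 to 154 in 4T1 (median 125). The groups did not overlap, and the log2 fold change of 2.02 ± 0.10 (adjusted p = 4.42e-13) was the largest rise among members in 4T1. Agpat2, the isoform of adipose tissue and liver, ran from 11.99 to 17.2 CPM with DOX (median 16.2) and from 41.0 to 50.1 in 4T1 (median 42.9), higher by 1.49 ± 0.07 (3.16e-13) with no overlap. With DIP, Agpat2 rose by 0.35 ± 0.12 (0.0243), with libraries 8 and 10 at 11.3 and 12.3 CPM and the other 8 at 19.6 to 24.2. That call did not pass without the filter on low counts (0.0569). Agpat1 differed with DIP by 0.25 ± 0.11 (0.067) and passed without DIP library 1 (0.30, 0.0132) or DOX library 5 (0.31, 0.00916), with RLE factors (0.0427) and with DESeq2 (0.0433). For the glycerol-3-phosphate acyltransferases, Gpat4, of the endoplasmic reticulum, was higher in 4T1 by 0.53 ± 0.08 (5.18e-06) and Gpam, of the mitochondrial outer membrane, was lower, at a log2 fold change of -0.36 ± 0.09 (0.00194). In DIP libraries 8 and 10 Gpam stood at 58.2 and 51.8 CPM, against 23.2 to 30.6 in the others. Gpat4 stood at 177 and 202 CPM there, against 97.1 to 119. Their DIP differences were 0.21 ± 0.16 (0.282) and 0.10 ± 0.13 (0.572), and -0.06 and -0.11 without that pair.

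The lipins, phosphatidate phosphatases that give the diacylglycerol for triglyceride, changed in opposite directions with DIP, Lpin1 up and Lpin2 down. Lpin1 ran from 2.77 to 11.4 CPM with DOX (median 8.20), from 6.36 to 76.3 with DIP (median 30.6) and from 7.42 to 17.2 in 4T1 (median 14.4). DIP libraries 7 and 9 were the highest at 76.3 and 71.0 CPM. Libraries 8 and 10, at 8.26 and 6.36 CPM, were within the DOX range, and the other 8 all exceeded it. The rise was 2.28 ± 0.40 on the log2 scale with DIP (adjusted p = 9.04e-05), a 4.87-fold difference, and 0.83 ± 0.26 in 4T1 (0.00768). Lpin2 fell with DIP by 0.60 ± 0.15 (0.00212), from 34.9 ± 4.27 to 22.7 ± 7.69 CPM, and differed by 0.08 ± 0.08 in 4T1 (0.413). Lpin3 was lower in 4T1, at a log2 fold change of -0.85 ± 0.08 (2.11e-08), at 6.80 to 9.28 against 12.4 to 17.2 CPM, and passed as higher with DIP only without libraries 8 and 10 (0.33 ± 0.13, 0.0373).

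Both enzymes of the last step, which add the third chain, were higher with DIP. Dgat1 ran from 9.53 to 15.75 CPM with DOX and from 15.76 to 20.9 with DIP, with medians of 11.9 and 18.8, and the groups did not overlap. It rose by 0.61 ± 0.09 on the log2 scale (adjusted p = 1.4e-05), and libraries 8 and 10, at 20.1 and 19.98 CPM, were among the others. Dgat2 rose by 0.55 ± 0.22 (0.0466), but its highest levels were those of libraries 8 and 10, at 16.9 and 18.1 CPM, and the difference was 0.26 ± 0.18 (0.249) without them. The Dgat2 call also ended without any 1 of DOX libraries 1, 2, 3, 4, 6, 7, 8, 9 and 10 or DIP libraries 1, 4, 6, 8 and 10 (adjusted p up to 0.106), with limma voom (0.142) and without the filter (0.0675). In 4T1 Dgat1 differed by -0.16 ± 0.09 (0.125) and Dgat2 by -0.20 ± 0.14 (0.214). Of the 9 assembly genes, 4 rose and 1 fell with DIP, and 4 were higher and 2 lower in 4T1. Over all genes tested, 24.5% were higher and 21.0% lower with DIP, and 34.3% and 35.6% in 4T1.

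**Figure D4:**
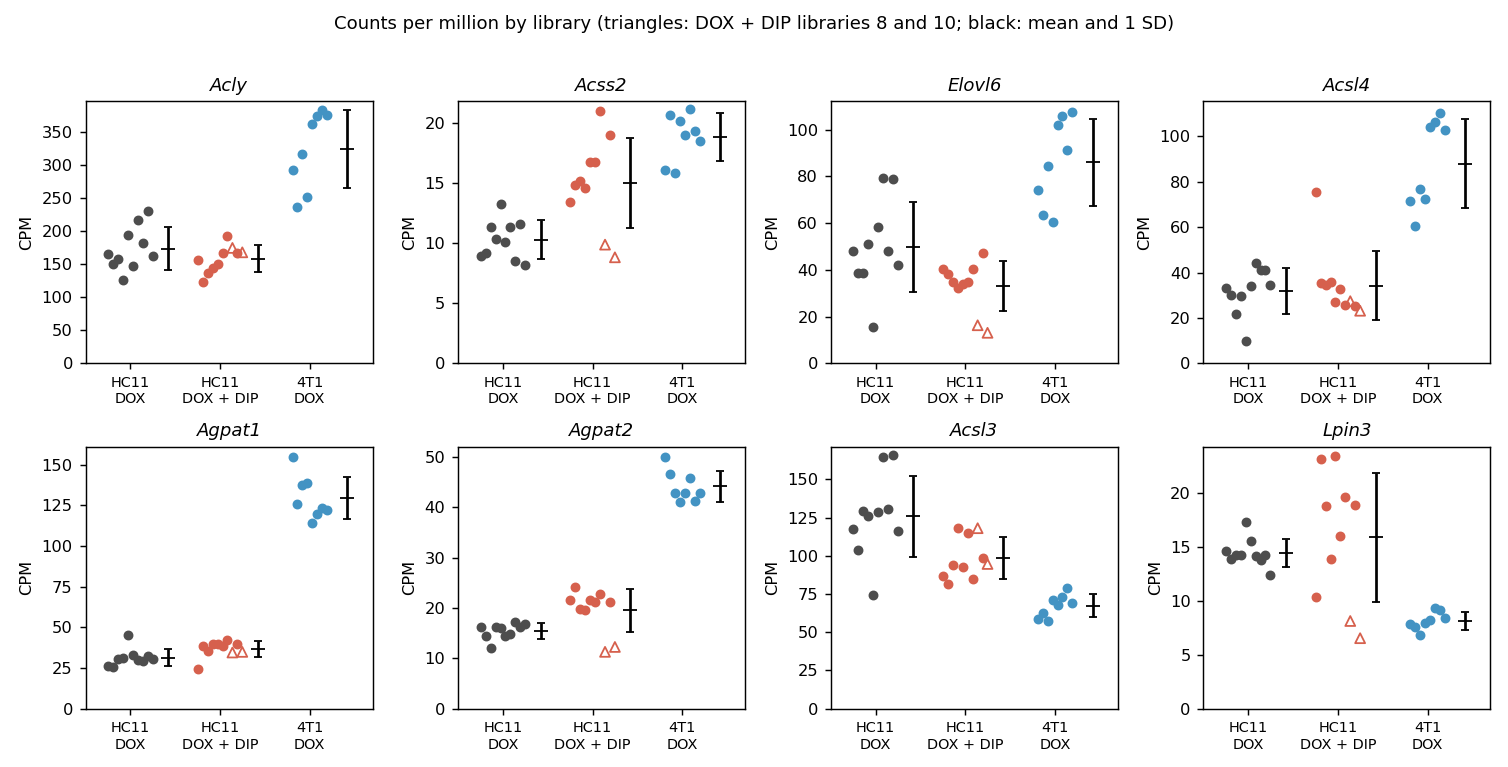
CPM of 8 members in each library of the 3 groups, with the mean and 1 SD of a group in black and DIP libraries 8 and 10 as open triangles. The 4T1 libraries lie above all HC11 DOX libraries for Acly, Acss2, Acsl4, Agpat1 and Agpat2 and below them for Lpin3.

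Among the 4 genes of fatty acid uptake and carriage, Angptl4 alone had a mean above 1 CPM. Its product is a secreted inhibitor of lipoprotein lipase and a known target of glucocorticoid and PPAR receptors. Angptl4 ran from 4.50 to 9.14 CPM with DOX (median 6.34), from 10.5 to 126 with DIP (median 35.7) and from 0.643 to 3.56 in 4T1 (median 1.46). The 3 groups did not overlap. DIP libraries 3, 4, 5 and 6 stood highest, at 76.3 to 126 CPM, and libraries 7 to 10 lowest, at 10.5 to 14.9 CPM, so that for this gene libraries 7 and 9 were low beside 8 and 10. The rise with DIP was 3.01 ± 0.45 on the log2 scale (adjusted p = 1.09e-05), an 8.05-fold difference and the largest among the members tested with all libraries. In 4T1 the gene was lower, at a log2 fold change of -1.90 ± 0.29 (9.02e-06).

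Lipoprotein lipase itself, Lpl, had 472 counts in all DOX libraries, 536 in the DIP libraries and 33 in 4T1. It was lower in 4T1, at a log2 fold change of -3.45 ± 0.66 (adjusted p = 0.000114), a 10.9-fold difference that became 17.4-fold without 4T1 libraries 1 and 2, and its DIP difference was 0.10 ± 0.54 (0.901). DOX libraries varied 30.2-fold for this gene, from 0.0214 to 0.648 CPM. Fabp3, the heart and mammary fatty acid binding protein, had 245, 391 and 114 counts in the 3 groups. It was lower in 4T1, at a log2 fold change of -0.76 ± 0.22 (0.00408), and its DIP difference of 0.65 ± 0.32 (0.104) passed without DIP library 2 (0.77, 0.0396) and was 0.13 without libraries 8 and 10. Cd36, the fatty acid translocase, did not pass the filter on low counts. Its libraries held 55 counts in all with DOX, 301 with DIP and 2 in 4T1. DIP libraries 1, 2, 4 and 6 stood at 0.338 to 0.483 CPM of Cd36 and the other 6 at 0 to 0.0262 CPM. Without the filter, Cd36 passed as higher with DIP (2.32 ± 0.85 on the log2 scale, adjusted p = 0.0463) and lower in 4T1 (-3.87 ± 0.93, 0.00122).

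Pnpla2 rose in both comparisons without overlap. It encodes ATGL, the lipase that starts the breakdown of stored triglyceride. Pnpla2 ran from 17.7 to 33.3 CPM with DOX (median 22.7), from 49.7 to 127 with DIP (median 78.2) and from 49.0 to 77.9 in 4T1 (median 59.9). Every DIP and every 4T1 library lay above every DOX library, and DIP libraries 8 and 10, at 77.9 and 81.0 CPM, sat in the middle of their group. The rise was 1.72 ± 0.16 on the log2 scale with DIP (adjusted p = 1e-08), a 3.29-fold difference that was 3.25-fold without those libraries, and 1.30 ± 0.13 in 4T1 (2.27e-08).

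Cpt1a, the gate for long-chain fatty acids into mitochondria, ran from 32.2 to 72.4 CPM with DOX (median 55.8), from 15.7 to 196 with DIP (median 120.3) and from 9.65 to 16.4 in 4T1 (median 13.7). DIP libraries 8 and 10, at 18.4 and 15.7 CPM, lay below every DOX library, near the level of 4T1, and 7 of the other 8 lay above every DOX library. The rise with DIP was 1.05 ± 0.36 (adjusted p = 0.0204) with all libraries and 1.32 ± 0.21 (3.43e-05) without that pair, and 0.70 (0.181) with limma voom and all libraries. In 4T1 the gene was lower, at a log2 fold change of -2.07 ± 0.17 (8.52e-10), a 4.21-fold difference with no overlap. Pdk4, a kinase that shuts off pyruvate dehydrogenase and so favours fatty acid use, had 44 counts in the DOX libraries, 2322 with DIP and 23 in 4T1, and 1540 of the DIP counts were in library 2 alone. It did not pass the filter on low counts with all libraries, and without that filter it was higher with DIP by 5.56 ± 1.20 (adjusted p = 0.00127) and differed by -0.59 ± 0.64 in 4T1 (0.457). Without libraries 8 and 10 it was higher with DIP by 5.90 ± 1.03 (7.36e-05), with 8.70 CPM in library 2, 1.58 in library 9, 1.52 in library 7 and at most 0.485 in the others. In that fit Pdk4 passed the filter mainly through the DIP libraries, where it was high, so the call adds no support.

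Other genes of lipid metabolism, in lists that hold none of the 36, were counted in the same fits. The counts of each list stand beside these shares of all genes tested. With DIP 24.5% were higher and 21.0% lower, or 27.0% and 25.4% without libraries 8 and 10. In 4T1 34.3% were higher and 35.6% lower. Of 16 tested regulators, 5 rose and 3 fell with DIP (median log2 fold change 0.25). Nr1h3, the liver X receptor alpha, rose from a mean of 1.67 to 6.50 CPM, by 1.98 ± 0.20 on the log2 scale (adjusted p = 4.61e-08). Insig2, which retains SREBP precursors in the endoplasmic reticulum, rose by 1.36 ± 0.20 (7.9e-06), and every DIP library of both genes lay above every DOX library. Srebf2, which drives cholesterol synthesis, fell by 0.77 ± 0.16 (0.000615). In 4T1, 5 of 15 tested regulators were higher and 5 lower (median -0.02). Ppargc1a, a coactivator of mitochondrial oxidation, stood at 23.9 CPM in HC11 with DOX and 0.303 in 4T1, lower, at a log2 fold change of -6.33 ± 0.43 (7.7e-11), and -7.05 without 4T1 libraries 1 and 2. Rxra, the partner of many lipid-sensing receptors, was lower, at a log2 fold change of -1.47 ± 0.09 (1.19e-11), and Insig1 was higher by 1.18 ± 0.17 (4.76e-06).

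The 21 tested genes of cholesterol synthesis and uptake had a median of -0.62 with DIP, the lowest of the 8 lists of lipid and pyruvate genes, and of 0.86 in 4T1, the highest of those lists. With DIP 2 rose and 13 fell, with or without libraries 8 and 10. Idi1, the isopentenyl diphosphate isomerase, fell from 44.2 to 11.3 CPM (-1.95 ± 0.25, adjusted p = 2.23e-06). In 4T1, 17 were higher and 1 lower. Fdps, the farnesyl diphosphate synthase, stood at 238 CPM there against 72.9 (1.69 ± 0.21, 6.2e-07), and Acat2, an acetyl-CoA acetyltransferase, at 231 against 74.7 (1.61 ± 0.11, 9.43e-11). Both comparisons use the same DOX libraries.

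Of 12 lipid droplet genes tested, 6 rose and 0 fell with DIP (median 0.65), and without libraries 8 and 10, 8 rose and 1 fell. Plin3, a droplet coat protein, rose from 46.9 to 144 CPM (1.64 ± 0.36, adjusted p = 0.00091), Lipe, the hormone-sensitive lipase, from 4.19 to 10.5 (1.34 ± 0.28, 0.000511), and Fitm2, which acts in droplet budding, from 21.2 to 37.6 (0.85 ± 0.14, 2.61e-05). In 4T1, 6 of 11 were higher and 2 lower (median 0.28), among them Plin2 at 145 against 65.8 CPM (1.12 ± 0.11, 1.88e-08) and Lipe at 9.64 CPM (1.18 ± 0.14, 4.72e-07). Fitm2 was lower there (-0.62 ± 0.11, 7.65e-05). Of 22 genes of fatty acid oxidation, 9 rose and 1 fell with DIP (median 0.28), and without libraries 8 and 10, 14 rose and 1 fell. Slc25a20, the carnitine-acylcarnitine carrier downstream of Cpt1a, rose from 11.9 to 22.3 CPM without overlap (0.93 ± 0.12, 2.13e-06). Acadm, the medium-chain dehydrogenase, rose by 0.78 ± 0.27 (0.0203), a call that ended with limma voom (0.130). In 4T1, 6 were higher and 12 lower (median -0.31). Decr1, needed to oxidise unsaturated chains, was lower (-1.47 ± 0.24, 1.99e-05), whereas Cpt2 (0.73 ± 0.09, 8.62e-07) and Eci1 (0.72 ± 0.10, 1.22e-06) were higher.

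**Figure D5:**
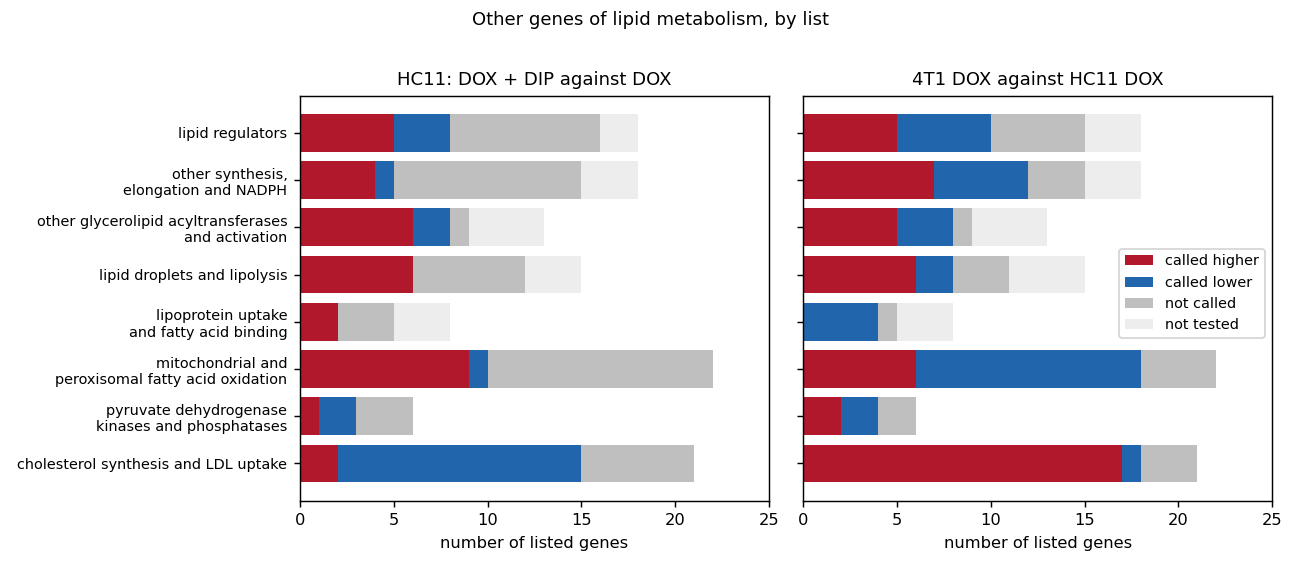
Number of genes in each list called higher, called lower, not called or not tested for DOX + DIP against DOX in HC11 and for 4T1 against HC11 with DOX, as stacked bars. Cholesterol genes were lower with DIP in 13 of 21 and higher in 4T1 in 17 of 21, and oxidation genes were higher with DIP in 9 of 22 and lower in 4T1 in 12 of 22. Over all genes tested, 24.5% were higher and 21.0% lower with DIP, and 34.3% and 35.6% in 4T1.

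Among 9 other acyltransferase and activation genes, 6 rose and 2 fell with DIP (median 0.41), and 5 were higher and 3 lower in 4T1 (median 0.32). Agpat4, another lysophosphatidate acyltransferase, rose with DIP from 2.30 to 42.6 CPM (4.23 ± 0.60, adjusted p = 5.9e-06), a log2 change of 3.46 with limma voom, and was higher in 4T1 at 15.6 CPM (2.73 ± 0.22, 1.34e-09). Gpat3, a glycerol-3-phosphate acyltransferase of the endoplasmic reticulum, rose with DIP from 2.54 to 14.0 CPM without overlap (2.48 ± 0.28, 3.13e-07). Slc27a3, of the fatty acid transport protein family, was lower in both, at 12.02 CPM with DIP (-1.58 ± 0.23, 8.13e-06) and 2.93 in 4T1 (-3.66 ± 0.21, 5.87e-12) against 36.4. Acsl5 was higher in 4T1 (0.86 ± 0.06, 3.33e-10). Of 15 other genes of synthesis, elongation and NADPH supply, 4 rose and 1 fell with DIP (median 0.13), and 7 were higher and 5 lower in 4T1 (median 0.12). Acacb, the acetyl-CoA carboxylase whose malonyl-CoA restrains Cpt1a, rose with DIP from 6.50 to 16.6 CPM (1.37 ± 0.34, 0.00226) and was lower in 4T1 at 1.99 CPM (-1.74 ± 0.25, 4.31e-06). Pgd, of the pentose phosphate pathway, fell with DIP (-0.58 ± 0.21, 0.0251). Fads3, the least characterised of the Fads genes, passed narrowly with DIP (0.68 ± 0.28, 0.0498), not with library size alone (0.0549), without a filter (0.0751) or with limma voom (0.05002), and was higher in 4T1 at 85.0 against 14.7 CPM (2.52 ± 0.23, 6.78e-09). Hacd1, a dehydratase of chain elongation, stood at 0.0288 CPM in HC11 with DOX and 14.3 in 4T1 (8.91 ± 0.43, 5.24e-13, and 9.56 with limma voom). Its HC11 level is close to the 0.0135 to 0.0224 CPM that a count of 0 allows. Hacd1 thus passed the filter through the 4T1 libraries, where it was high, and the size of its change is uncertain.

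Of 5 tested genes of lipoprotein uptake and fatty acid binding, 2 rose and 0 fell with DIP (median 0.40), and 0 were higher and 4 lower in 4T1 (median -1.12). Vldlr, the VLDL receptor, rose with DIP from 49.4 to 95.1 CPM (0.96 ± 0.28, adjusted p = 0.00754) and was lower in 4T1 at 3.43 CPM (-3.88 ± 0.35, 5.28e-09). Lmf1, needed for lipase maturation, was lower in 4T1 (-1.12 ± 0.20, 4.11e-05). Fabp5 was lower there, at a log2 fold change of -0.44 ± 0.19 (0.0409), a call lost without 4T1 libraries 1 and 2 (0.0606), without a filter (0.0711), with limma voom (0.0874) and with all 3 groups in one fit (0.215). Fabp4, the adipocyte fatty acid binding protein, rose with DIP from 1.59 to 29.6 CPM (4.24 ± 0.97, 0.00117), and without DIP library 2, at 125 CPM, by 3.59 (0.00295). Of 6 tested kinases, phosphatases and subunits of pyruvate dehydrogenase, 1 rose and 2 fell with DIP (median 0.08): Pdha1, the E1 alpha subunit, rose (0.46 ± 0.12, 0.00302), and Pdk3 (-0.64 ± 0.11, 5.05e-05) and Pdp2 (-0.49 ± 0.16, 0.0132) fell. In 4T1, 2 were higher and 2 lower (median 0.20), Pdk1 higher (0.81 ± 0.14, 2.48e-05), Pdk2 (-2.21 ± 0.30, 1.71e-06) and Pdha1 (-0.48 ± 0.09, 0.000109) lower.

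Markers of other cell types were measured beside these genes. The summed level of 8 adipocyte markers ran from 0.388 to 5.82 CPM with DOX, 0.764 to 126 with DIP and 0.267 to 0.507 in 4T1, and without Fabp4 from 0.279 to 0.707, 0.151 to 0.887 and 0.146 to 0.319 CPM. The defining markers Adipoq, Lep and Plin1 had means of 0.0313, 0.00486 and 0.0173 CPM with DOX and 0.0238, 0.00386 and 0.0643 with DIP, and 2 of the 8 markers were at 0 in every 4T1 library. The sum of 6 fibroblast markers ran from 38.1 to 98.8 CPM with DOX, 20.6 to 268 with DIP (20.6 and 20.7 in libraries 8 and 10) and 9.49 to 15.8 in 4T1. The 5 macrophage markers summed to 8.29 to 12.1, 10.04 to 27.2 and 15.1 to 22.5 CPM, with the defining markers Ptprc and Adgre1 near 0 in each group. The 4 endothelial markers summed to 3.29 to 5.23, 0.270 to 1.56 and 0.115 to 0.310 CPM, most of it Pecam1. The part of the epithelial, fibroblast and macrophage markers in the differences of the 36 genes was not tested. Exons of 12 members share bases with exons of other genes, over at least 5% of the exon length for 4 of them and less for the other 8 (Acss2, Agpat1, Agpat2, Elovl1, Elovl6, Me1, Scd2 and Srebf1). Besides Mid1ip1, Acsl1 shares 9.91% with Gm45244, and Fabp3 9.72% with Gm10570 and 9.84% with Zcchc17, all on the opposite strand. Acsl3 shares 5.60% with Utp14b on the same strand.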

How the data were processed

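RNA of 28 libraries was sequenced from total RNA extracted with TRIzol and depleted of ribosomal RNA with a NEBNext Ultra II kit, per the labels' protocols. The authors deposited whole-number counts per gene for each library, made with fastp 0.23.2, featureCounts 2.0.1 and GRCm39, per the submitters' processing notes. The aligner, the strand setting and the handling of shared reads were not given in the sources used here. Members and lists were chosen with earlier results of these data known. Groups came from the labels, and 0 columns of other samples were left out. Counts were fitted separately for each comparison with edgeR 4.0.16 in R 4.3.3 (filterByExpr, TMM factors, robust quasi-likelihood test, Benjamini-Hochberg adjustment over all genes tested, call at an adjusted p under 0.05), with no covariate. SE is the log2 fold change divided by the square root of the F statistic. CPM was computed with TMM factors of the 28 libraries together, and its log2 with a prior count of 2. Symbols, exon lengths and overlaps came from GENCODE M21 and promoters from RefSeq, both on GRCm38, so no coordinate of the counts was used. Libraries held 134117581 to 222065843 counts, and limits for a count of 0 rest on 3 counts and cover counting error only. Members called with a log2 fold change of at least 1 and a mean log2 CPM of at least 2 were given library by library or by lowest, median and highest value, as were further members chosen after their values were seen. Of each other list, up to 3 called genes with the largest change at that level were named. Some genes that this rule names are not reported here. Alternatives were other scalings, no filter, DESeq2 1.42.0, limma 3.58.1 (voom), all groups in one fit, and leaving out libraries. The same alternatives for the named genes of other lists, and the CCAAT and GC box, were added after seeing the data. The fit was tested on simulated data.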

Additional observations from a re-analysis of the deposited data

Results flagged for a closer look

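For each member, the highest and lowest library of each group were compared with their nearest neighbour on the log2 CPM scale, and in 9 of 108 groups the gap was large against the whole range. Chance sets apart about 1 in 20 groups. HC11 DOX library 5 was set apart for 3 genes. It had the lowest Elovl6, at 15.4 CPM against 38.5 in the nearest library, the lowest Acsl4, at 9.75 against 21.7, and the highest Agpat1, at 45.1 against 32.9. DIP library 1 was set apart for a pair of the same genes, with the highest Acsl4, at 75.3 CPM against 36.001, and the lowest Agpat1, at 24.2 against 34.5. HC11 DOX library 3 had the lowest Agpat2, at 11.99 CPM against 14.5. DIP library 2 had the highest Lpin2, at 43.1 CPM against 24.4. In 4T1, library 7 had the highest Gpat4, at 202.4 CPM against 175. Library 2 was the only 4T1 library with any Cd36, at 0.0125 CPM from 2 counts.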

How the results depend on the processing

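The number of members called moved by at most 1.5 times under the alternatives run. With DIP, 7 to 13 members were higher and 4 to 8 lower. In 4T1, 9 to 12 were higher and 13 to 18 lower. Values that changed sign were small. Without DIP libraries 8 and 10, the DIP differences of Slc25a1 (0.044), Elovl5 (0.082), Mid1ip1 (0.029), Gpam (-0.061) and Gpat4 (-0.11) changed sign. Scaled by library size alone, the 4T1 differences of Acaca (-0.12), Scd2 (-0.014), Elovl5 (-0.092) and Lpin2 (-0.15) did. Leaving out 1 library at a time, the DIP difference ranged from -0.055 to 0.32 for Lpl, -0.082 to 0.18 for Acsl4, -0.34 to 0.014 for Thrsp, -0.085 to 0.0084 for Mid1ip1, -0.018 to 0.086 for Elovl1, -0.11 to 0.024 for Elovl5 and -0.0090 to 0.14 for Gpat4. The cause of these changes was not tested. No paired analysis was possible because the labels give no replicate numbers, and the numbers used here follow accession order. Counts limit Cd36, Lpl, Fabp3, Thrsp and Pdk4, which had few reads per library.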
